A study of Homo sapiens with 6 samples.

Results

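The genes described here are 10 feedback regulators and transcriptional outputs of the ERK MAP kinase pathway, SPRY2, SPRY4, SPRED1, SPRED2, DUSP4, DUSP6, ETV4, ETV5, PHLDA1 and EPHA2. They are taken by symbol, with no threshold on a measured value, and all 10 are among the 12010 genes that could be named in the deposited tables. The choice of these genes and of the related lists was made with earlier results of these data known. The tables come from 6 RNA sequencing libraries of the established human line 92.1, whose cells were grown from a melanoma of the uvea, the pigmented layer of the eye. In the LBH589 group, 3 libraries came from cells given 0.1 µM LBH589 for 24 h, and in the DMSO group, 3 libraries came from cells given the solvent DMSO for 24 h. Histone deacetylases, the enzymes that take acetyl groups off histones and other proteins, are the targets that LBH589, also called panobinostat, inhibits. The comparison asked how RNA levels in these cells differ after histone deacetylase inhibition. All libraries are of 1 cell line. Since nothing in the labels says that replicates were separate cultures, the p-values speak only of the spread between these libraries, which may be technical, and no batch is named.

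In the ERK pathway, RAS proteins at the membrane switch on RAF kinases, which activate MEK and then ERK, and ERK enters the nucleus and drives transcription. Among its targets are brakes on the pathway itself. Sprouty and SPRED proteins act at the level of RAS and RAF, and dual-specificity phosphatases take the activating phosphates off ERK, so that the RNA of these genes is widely used as a readout of pathway output. In uveal melanoma the pathway is commonly fed from mutant Gq-class G proteins through protein kinase C and the RAS activator RASGRP3.

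Levels are in FPKM, fragments for each kilobase of transcript and 1000000 mapped fragments, summed over the listed transcripts of a gene. Tests were made with limma on log2(FPKM + 1) over 11520 genes, a gene was called at a Benjamini-Hochberg adjusted p below 0.05, and fold changes are LBH589 minus DMSO on that scale, on which the change of a gene near 1 FPKM or lower appears too small. Summed FPKM per library lay between 355148 and 367222 in LBH589 and between 397174 and 422630 in DMSO, and mitochondrially encoded genes held between 35.12 and 37.31% of it in LBH589 and between 35.82 and 45.70% in DMSO. The files give no counts, so absolute depth is unknown. Of 7 melanocyte lineage markers, all were measured. Their summed level was between 718 and 774 FPKM in LBH589 and between 2530.4 and 2670.3 FPKM in DMSO. TYRP1 was the most abundant of them, at a mean of 500 FPKM in LBH589 and 1796 FPKM in DMSO. Of the 7, 6 fell, where 21.6% of all tested genes fell, and PMEL did not pass (adjusted p = 0.239). DCT, among the 6, passed the filter on low values only through its DMSO libraries. Of the other lineages, 1 of 4 epithelial markers (EPCAM), 1 of 4 fibroblast markers (COL1A1), 1 of 3 blood markers (CD68) and 0 of 3 endothelial markers were measured. The rest were not among the genes that could be named. Summed levels were between 0.692 and 1.12 FPKM in LBH589 and between 0.190 and 0.452 FPKM in DMSO for the epithelial list. For the fibroblast list they were between 2.83 and 4.12 FPKM in LBH589 and between 0.606 and 1.96 FPKM in DMSO. For the blood list they were between 6.69 and 12.4 FPKM in LBH589 and between 11.6 and 16.8 FPKM in DMSO. EPCAM and COL1A1 rose, EPCAM passing the filter on low values only through its LBH589 libraries, and their part in the results below was not tested. In bulk RNA, a change in the number of cells in a state and a change in RNA per cell cannot be told apart, and FPKM gives only levels relative to the rest of the library.

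Of the 10 genes, all passed the filter on low values, 7 fell and 0 rose after LBH589. Across all tested genes, 21.6% fell and 27.2% rose. The falls were those of SPRY4, ETV4, DUSP6, SPRED2, EPHA2, ETV5 and DUSP4, and SPRY2, SPRED1 and PHLDA1 did not pass. All 3 LBH589 libraries lay below all 3 DMSO libraries for 8 of the 10 genes, against 26.5% of all tested genes. FPKM was not rescaled for such comparisons of libraries, and summed FPKM was lower in every LBH589 library than in every DMSO library. Falls to a log2 fold change of -1 or lower numbered 3 of the 10 (SPRY4, ETV4 and DUSP6, with SPRED2 just above that limit), against 10.7% of all tested genes. No gene of the 10 had all LBH589 libraries above all DMSO libraries, against 33% of all tested genes. The median log2 fold change was -0.66 over the 10 genes and 0.08 over the 11520 tested genes.

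**Figure D1:**
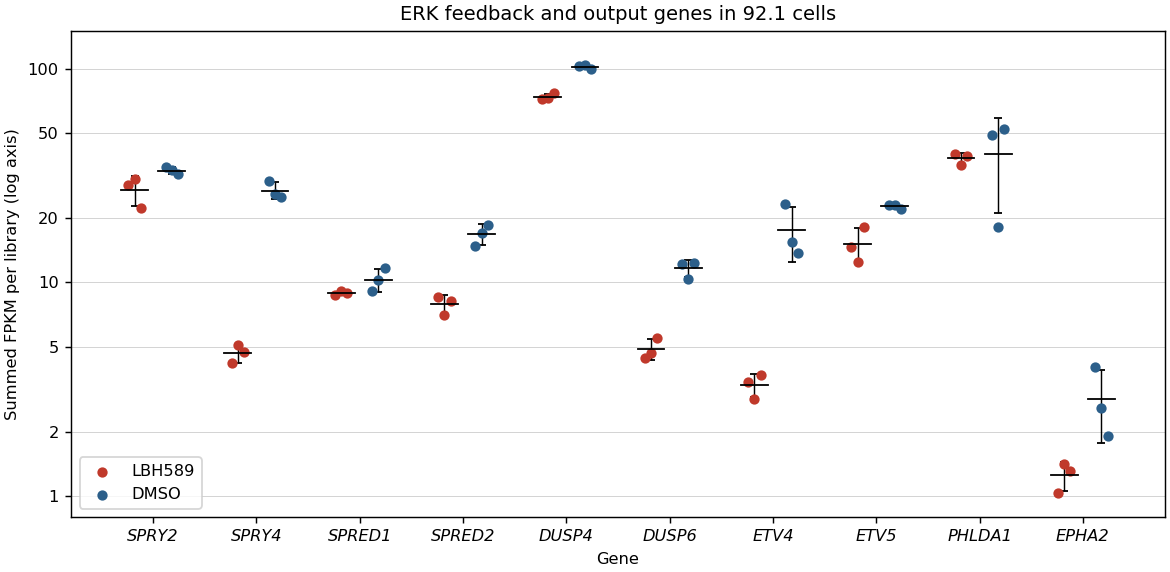
Summed FPKM (log axis) of the 10 ERK feedback and output genes, with a point per library, LBH589 in red and DMSO in blue, a bar at the mean and whiskers of 1 SD (n = 3 each). SPRY4 and ETV4 stand lowest relative to DMSO, at 4.18 to 5.10 and 2.86 to 3.68 FPKM in LBH589 against 25.02 to 29.7 and 13.7 to 23.3 FPKM in DMSO, while the PHLDA1 groups overlap because of DMSO replicate 2.

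The Sprouty proteins, inhibitors of receptor tyrosine kinase signalling to RAS and RAF, differed from each other. SPRY4 was at 4.18, 5.10 and 4.71 FPKM in LBH589 replicates 1 to 3, against 29.7, 26.1 and 25.02 FPKM in DMSO replicates 1 to 3. Every LBH589 library was below every DMSO library by a wide margin, and the LBH589 mean was 17.3% of the DMSO mean. SPRY4 fell (log2 fold change -2.30, SE 0.12, adjusted p = 4.84e-05), and only 1.7% of the tested genes had a lower fold change. SPRY2 was at 28.6, 30.4 and 22.3 FPKM in LBH589, against 34.5, 33.5 and 32.1 FPKM in DMSO. The SPRY2 groups did not overlap in FPKM without rescaling, but the LBH589 libraries spread more widely among themselves than the gap between the groups. SPRY2 did not pass (log2 fold change -0.30, 95% interval -0.63 to 0.02, adjusted p = 0.109). With equal library sums its log2 fold change was -0.13 (adjusted p = 0.456). Within each library, SPRY2 stood at 6.85, 5.96 and 4.74 times SPRY4 in LBH589 and at 1.16, 1.28 and 1.28 times SPRY4 in DMSO. That ratio is free of any scaling between libraries; it and the 3 other ratios of related genes below were chosen after the values were seen and carry no test.

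The SPRED proteins bind RAS and bring the RAS-inactivating protein neurofibromin to the membrane. SPRED2 was at 8.59, 7.005 and 8.17 FPKM in LBH589, against 14.9, 17.01 and 18.6 FPKM in DMSO. The groups lay apart, and SPRED2 fell (log2 fold change -1.0, SE 0.13, adjusted p = 0.00132), to 47.0% of the DMSO mean. SPRED1 was at 8.69, 9.09 and 8.92 FPKM in LBH589, against 9.07, 10.2 and 11.6 FPKM in DMSO. DMSO replicate 1 was within the LBH589 range, and SPRED1 did not pass (log2 fold change -0.19, 95% interval -0.48 to 0.11, adjusted p = 0.248). The ratio of SPRED1 to SPRED2 was 1.13 ± 0.147 in LBH589 and 0.612 ± 0.0118 in DMSO (SD, n = 3 each), so SPRED2 was the more abundant of the pair in every DMSO library and the less abundant in every LBH589 library.

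Both dual-specificity phosphatases fell, by different amounts. DUSP6 encodes a phosphatase of the cytoplasm that acts on ERK in particular, and DUSP4 encodes a nuclear phosphatase of ERK and other MAP kinases. DUSP6 was at 4.44, 4.67 and 5.48 FPKM in LBH589, against 12.2, 10.4 and 12.3 FPKM in DMSO. It fell to 41.8% of the DMSO mean, with no overlap between the groups (log2 fold change -1.11, SE 0.13, adjusted p = 8.17e-04). DUSP4, the most abundant of the 10 genes in both groups, was at 72.01, 73.1 and 76.8 FPKM in LBH589, against 103.7, 103.7 and 99.3 FPKM in DMSO. It fell to 72.4% of the DMSO mean (log2 fold change -0.46, SE 0.08, adjusted p = 0.00458), and the libraries of each group lay close together. DUSP4 stood at 15.3 ± 1.13 times DUSP6 in LBH589 and at 8.84 ± 0.993 times DUSP6 in DMSO (SD, n = 3 each).

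ETV4 and ETV5 encode ETS transcription factors of the PEA3 family, which are transcribed when ERK relieves repression by the protein Capicua. ETV4 was at 3.42, 2.86 and 3.68 FPKM in LBH589, against 23.3, 15.5 and 13.7 FPKM in DMSO. The DMSO libraries spread widely, yet the lowest of them was well above all LBH589 libraries, and ETV4 fell to 19.0% of the DMSO mean (log2 fold change -2.07, SE 0.21, adjusted p = 5.36e-04). ETV5 was at 14.7, 12.4 and 18.2 FPKM in LBH589, against 23.1, 22.9 and 22.2 FPKM in DMSO. The groups did not overlap, LBH589 replicate 3 lying nearest to DMSO, and ETV5 fell to 66.4% of the DMSO mean (log2 fold change -0.58, SE 0.15, adjusted p = 0.0192). The ETV5 call ended with equal library sums (adjusted p = 0.0733) or a sum of 1000000 (0.074) and without LBH589 replicate 1 (0.0606) or DMSO replicate 2 (0.0559). The ratio of ETV5 to ETV4 was 4.53 ± 0.364 in LBH589 and 1.36 ± 0.326 in DMSO (SD, n = 3 each).

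PHLDA1 encodes a pleckstrin homology domain protein whose RNA is induced by ERK signalling. It was at 40.05, 35.4 and 38.9 FPKM in LBH589, against 49.1, 18.2 and 52.2 FPKM in DMSO. DMSO replicates 1 and 3 lay above all LBH589 libraries and DMSO replicate 2 lay below them. PHLDA1 did not pass (log2 fold change 0.07, 95% interval -0.89 to 1.04, adjusted p = 0.895), and the sign of that value is opposite to the difference of the mean FPKM, 38.1 in LBH589 and 39.9 in DMSO. Without DMSO replicate 2 it passed downward (log2 fold change -0.40, adjusted p = 0.0347). MYC, another output gene, was at 1.86, 2.84 and 14.8 FPKM in LBH589, against 184, 3.47 and 143 FPKM in DMSO, so DMSO replicate 2 was again the low DMSO library. MYC did not pass (log2 fold change -3.14, adjusted p = 0.141) and did without that library (log2 fold change -4.87, adjusted p = 0.00681). In DMSO replicate 2, 45.70% of FPKM was of mitochondrially encoded genes, the highest share of the 6 libraries. The share was 43.91% in DMSO replicate 3, where PHLDA1 and MYC were not low, and 35.82% in DMSO replicate 1. The part of this share in these values was not tested.

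EPHA2, a receptor tyrosine kinase bound by ephrin-A ligands on neighbouring cells, was the least abundant of the 10 genes. It was at 1.03, 1.41 and 1.31 FPKM in LBH589, against 4.005, 2.58 and 1.92 FPKM in DMSO. The groups did not overlap, although DMSO replicate 3 was near the highest LBH589 library, and EPHA2 fell to 44.1% of the DMSO mean (log2 fold change -0.74, SE 0.22, adjusted p = 0.0349). This was the least stable of the 7 falls. Its call ended with equal library sums (adjusted p = 0.0659), with a sum of 1000000 (0.0627), with its 1 transcript tested among the most abundant transcripts of all genes (0.0633), and without LBH589 replicate 1, 2 or 3 (0.105, 0.0722 and 0.0837) or DMSO replicate 2 (0.0745).

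Of the 10 genes, 7 were matched to RefSeq promoter windows (build GRCh38.p14, 250 bases before to 50 after a start), with 10 windows in all, and DUSP4, ETV4 and ETV5 were not. The windows were searched on both strands for the Capicua octamers TGAATGAA and TGAATGGA, the ETS motif CCGGAAGT, the AP-1 motif TGANTCA and the cyclic AMP response element TGACGTCA. Across all 35116 windows these occur in 1.65, 1.03, 4.14, 7.71 and 1.85% of windows. The window of EPHA2 holds TGAATGAA and TGACGTCA, a window of SPRED2 holds TGANTCA, and the other windows hold none of the 5, which says nothing of sites elsewhere. The EPHA2 stretch is shown because it is the window in which a Capicua octamer was found. It runs over 232 bases of the minus strand, chr1:16156088-16156319 (GRCh38.p14, a later build than the hg19 named for the files), up to the first base of the annotated EPHA2 transcripts, with both motifs in capitals and not overlapping.
EPHA2: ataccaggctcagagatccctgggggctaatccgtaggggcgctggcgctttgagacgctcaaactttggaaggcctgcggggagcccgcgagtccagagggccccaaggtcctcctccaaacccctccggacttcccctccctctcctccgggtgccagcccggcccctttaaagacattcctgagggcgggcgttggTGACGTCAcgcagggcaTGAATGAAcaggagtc
The TGACGTCA ends 43 bases and the TGAATGAA 26 bases before the RefSeq start. A match of letters is a description and no evidence of binding.

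The listed transcripts of the 10 genes numbered 25, of which 22 passed the same filter when transcripts were tested in place of genes. Of these, 5 fell and 0 rose, where 7.33% of all 27042 tested transcripts fell and 8.62% rose. The count rested on single libraries, being 1 without LBH589 replicate 2 and 3 without LBH589 replicate 1 or without DMSO replicate 2. ENST00000344120.4_1 of SPRY4 was the transcript that passed in each of these fits. The 5 were both tested transcripts of SPRY4 and the most abundant transcripts of DUSP4, DUSP6 and SPRED2. The main SPRY4 transcript, ENST00000344120.4_1, was at 4.07, 4.92 and 4.06 FPKM in LBH589, against 24.4, 23.6 and 21.5 FPKM in DMSO (log2 fold change -2.18, adjusted p = 9.28e-04). The less abundant transcripts of SPRY4, ENST00000434127.2_1 and ENST00000511815.1_3, were lower in LBH589 as well, the second of them listed at 0 in all 3 LBH589 libraries and too low to be tested. ENST00000434127.2_1 passed the filter only through its DMSO libraries. For ETV4, the FPKM was divided differently among transcripts in different DMSO libraries. ENST00000538265.5_1 held 57.9% of ETV4 FPKM in DMSO replicate 1 and 0.238 and 0.00593% in DMSO replicates 2 and 3, where ENST00000393664.6_1 held 53.3 and 60.8%. When a gene was represented by its most abundant transcript only, ETV4 did not pass (log2 fold change -1.43, adjusted p = 0.117), nor did ETV5 (-0.45, adjusted p = 0.0566) or EPHA2 (-0.74, adjusted p = 0.0633). When all transcripts were tested, none of the 5 tested ETV4 transcripts passed. Of these, ENST00000393664.6_1 passed downward without DMSO replicate 1 (-2.08, adjusted p = 0.00725, against -1.43 and 0.173 with it). ENST00000586826.1_1 had an adjusted p of 0.0509 and passed downward without DMSO replicate 2 (-1.80, adjusted p = 0.0245) and under 4 other settings (0.0375 to 0.0451). ENST00000319349.9_1 of ETV4 and ENST00000377102.5_1 of SPRY2 were higher on average in LBH589 (log2 fold changes 0.32 and 0.46), and neither passed (adjusted p = 0.506 and 0.278).

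The remaining members of the same families moved in both directions. Of 3 other Sprouty and SPRED genes, 2 rose and 0 fell (median log2 fold change 0.78), where 27.2% of all tested genes rose and 21.6% fell. SPRY3 was at 1.67 ± 0.0732 FPKM in LBH589 and 0.556 ± 0.129 FPKM in DMSO (SD, n = 3 each; log2 fold change 0.78, adjusted p = 0.00253). SPRY1 was at 6.63 ± 0.791 FPKM in LBH589 and 3.46 ± 1.79 FPKM in DMSO (log2 fold change 0.84, adjusted p = 0.0491), a call that ended without any single library other than DMSO replicate 2 (adjusted p = 0.0907 to 0.137). SPRED3 was at 1.26 ± 0.321 FPKM in LBH589 and 0.827 ± 0.0525 FPKM in DMSO and did not pass (adjusted p = 0.127).

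Of 8 other MAP kinase phosphatases, 4 rose and 2 fell (median log2 fold change 0.29). These are 50% rises and 25% falls, against 27.2% and 21.6% of all tested genes. DUSP1, an immediate-early phosphatase of p38, JNK and ERK, was at 60.02, 65.7 and 71.6 FPKM in LBH589, against 2.79, 1.76 and 1.21 FPKM in DMSO, and it rose (log2 fold change 4.55, SE 0.21, adjusted p = 3.96e-05). Its lowest LBH589 library was far above its highest DMSO library. DUSP10, which acts on p38 and JNK, rose to 9.59 ± 1.50 FPKM in LBH589, against 1.04 ± 0.241 FPKM in DMSO (log2 fold change 2.38, adjusted p = 1.29e-04). DUSP5, a nuclear ERK phosphatase and itself an ERK target, rose to 5.07 ± 0.679 FPKM in LBH589, against 1.64 ± 0.682 FPKM in DMSO (log2 fold change 1.23, adjusted p = 0.00479), and DUSP8 rose to 2.29 ± 0.171 FPKM, against 1.16 ± 0.241 FPKM in DMSO (adjusted p = 0.012). DUSP16, a JNK phosphatase, fell to 7.49 ± 0.620 FPKM in LBH589, against 14.1 ± 0.152 FPKM in DMSO (log2 fold change -0.83, adjusted p = 0.00112), and DUSP2 fell to 0.275 ± 0.129 FPKM, against 1.20 ± 0.246 FPKM in DMSO (adjusted p = 0.0052), having passed the filter only through its DMSO libraries. DUSP7 was at 4.26 ± 0.313 FPKM in LBH589 and 4.41 ± 0.986 FPKM in DMSO, and DUSP9 was listed at 0.267, 0.166 and 0.452 FPKM in LBH589 and at 2.08, 1.12 and 0 FPKM in DMSO. Neither passed (adjusted p = 0.898 and 0.322). Without DMSO replicate 3, the library listed at 0, DUSP9 passed downward (log2 fold change -0.99, adjusted p = 0.017) and 3 of the 8 fell. Like DUSP2, DUSP9 passed the filter on low values only through its DMSO libraries.

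**Figure D2:**
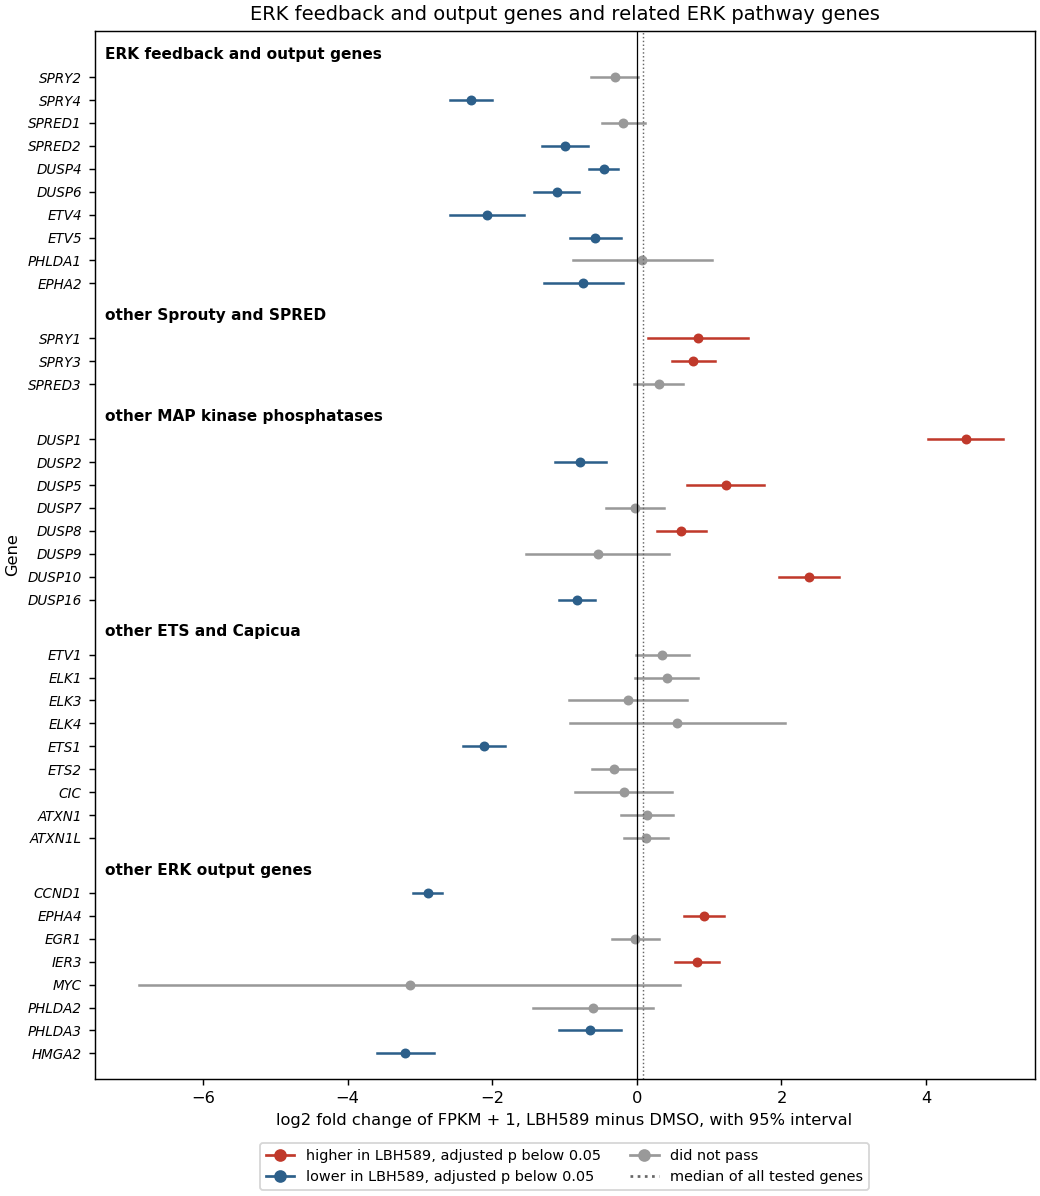
Log2 fold change of FPKM + 1, LBH589 minus DMSO, with its 95% interval, of the 10 genes (top) and of the tested members of 4 related lists, coloured by the call, with a dotted line at the median of all tested genes, 0.08. Of the 10 genes 7 lie left of 0 with their intervals, while DUSP1 lies far to the right at 4.55 and CCND1 and HMGA2 to the left at -2.89 and -3.20.

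Among 9 other ETS and Capicua genes, 0 rose and 1, ETS1, fell (median log2 fold change 0.12). That is 11.1% falls, against 21.6% of all tested genes, of which 27.2% rose. ETS1, a transcription factor whose activity ERK raises by phosphorylation, was at 14.9, 11.7 and 11.7 FPKM in LBH589, against 58.4, 55.8 and 59.3 FPKM in DMSO (log2 fold change -2.11, SE 0.12, adjusted p = 6.51e-05). ETV1, the third PEA3 family gene, did not fall with ETV4 and ETV5. It was at 27.2, 25.2 and 22.6 FPKM in LBH589, against 21.2, 21.5 and 15.8 FPKM in DMSO, all LBH589 libraries being the higher, and it did not pass (log2 fold change 0.35, adjusted p = 0.098) except under equal library sums (0.53, adjusted p = 0.0258) or a sum of 1000000, or with its most abundant transcript alone (3.76, adjusted p = 2.09e-04). CIC, which encodes Capicua, was at 3.73 ± 0.540 FPKM in LBH589 and 4.56 ± 1.84 FPKM in DMSO, and its partners ATXN1 and ATXN1L were at 2.62 ± 0.213 and 6.50 ± 0.469 FPKM in LBH589 and at 2.30 ± 0.437 and 5.89 ± 0.613 FPKM in DMSO. None of the 3 passed (adjusted p = 0.617, 0.476 and 0.449). ETS2, ELK1, ELK3 and ELK4 did not pass either (adjusted p = 0.0726, 0.108, 0.793 and 0.491).

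The make-up of the gene families around these genes differed between the groups, and the comparison of shares was chosen after the values were seen and carries no test. Over 10 MAP kinase phosphatases the summed level was 174 ± 10.3 FPKM in LBH589 and 140.4 ± 6.39 FPKM in DMSO (SD, n = 3 each), higher in each LBH589 library than in any DMSO library although DUSP4, DUSP6, DUSP16 and DUSP2 fell. DUSP1 held 37.8 ± 1.09% of that sum in LBH589 and 1.36 ± 0.504% in DMSO. DUSP4 held 42.6 ± 1.25% in LBH589 and 72.9 ± 1.97% in DMSO, and DUSP6 held 2.79 ± 0.158% in LBH589 and 8.30 ± 0.875% in DMSO. DUSP4 thus remained the most abundant phosphatase RNA in each library, with DUSP1 the next in each LBH589 library.

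**Figure D3:**
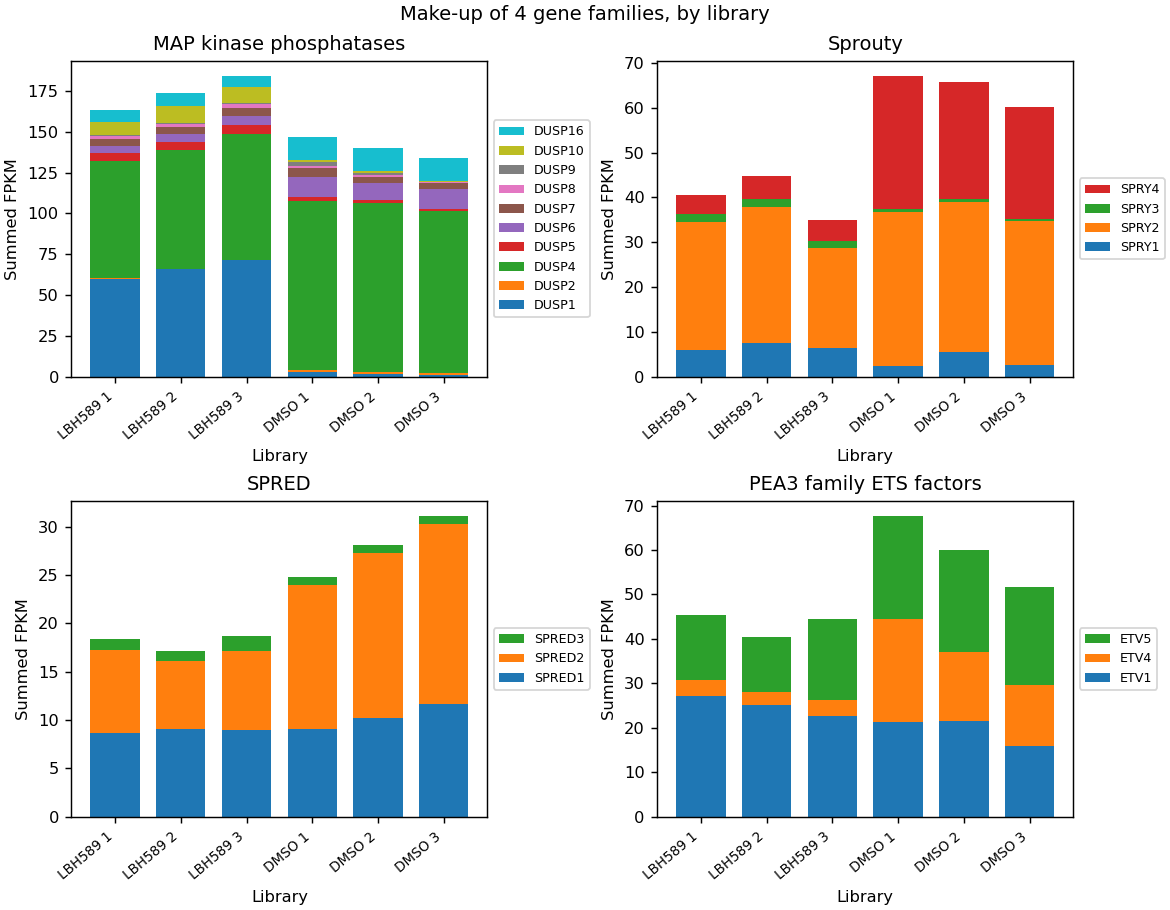
Summed FPKM of 4 gene families in each library, stacked by gene, with LBH589 libraries on the left. DUSP1 makes up 37.8% of the phosphatase sum in LBH589 and 1.36% in DMSO, and SPRY4 makes up 11.7% of the Sprouty sum in LBH589 and 41.8% in DMSO.

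The 4 Sprouty genes summed to 40.1 ± 4.87 FPKM in LBH589 and 64.3 ± 3.66 FPKM in DMSO. SPRY4 held 11.7 ± 1.60% of it in LBH589 and 41.8 ± 2.36% in DMSO, while SPRY2 held 67.5 ± 3.46% in LBH589 and 51.9 ± 1.31% in DMSO, so SPRY2 made up the larger part in every library. The 3 SPRED genes summed to 18.1 ± 0.840 FPKM in LBH589 and 28.0 ± 3.17 FPKM in DMSO, with SPRED2 at 43.7 ± 2.90% in LBH589 and 60.2 ± 0.268% in DMSO. The 3 PEA3 family genes summed to 43.5 ± 2.62 FPKM in LBH589 and 59.8 ± 7.95 FPKM in DMSO. ETV1 held 57.7 ± 6.04% of that in LBH589 and 32.6 ± 2.83% in DMSO, and ETV4 held 7.62 ± 0.598% in LBH589 and 28.96 ± 4.73% in DMSO, while the share of ETV5 overlapped between the groups (34.7 ± 5.45% in LBH589 and 38.5 ± 4.35% in DMSO).

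Of 10 other genes, ERK outputs and the PHLDA1 relatives PHLDA2 and PHLDA3, 8 were tested, 3 fell and 2 rose (median log2 fold change -0.63). The shares were 37.5% falls and 25% rises, against 21.6% and 27.2% of all tested genes. CCND1, the D-type cyclin through which ERK signalling drives entry into the cell cycle, was at 12.02, 13.4 and 12.2 FPKM in LBH589, against 98.2, 100.3 and 100.4 FPKM in DMSO (log2 fold change -2.89, SE 0.09, adjusted p = 1.61e-05). HMGA2, a chromatin protein of proliferating and mesenchymal cells, fell to 2.50 ± 0.297 FPKM in LBH589, against 31.5 ± 6.02 FPKM in DMSO (adjusted p = 4.76e-05). PHLDA3, a relative of PHLDA1, fell to 0.613 ± 0.153 FPKM, against 1.56 ± 0.513 FPKM in DMSO (adjusted p = 0.0242), a call lost when LBH589 replicate 1 was left out (adjusted p = 0.0651) or LBH589 replicate 3 (0.0792). IER3, an early response gene, rose to 12.1 ± 0.737 FPKM in LBH589, against 6.39 ± 0.884 FPKM in DMSO (adjusted p = 0.00246). EPHA4 rose to 1.78 ± 0.168 FPKM, against 0.459 ± 0.0548 FPKM in DMSO (adjusted p = 0.00108), having passed the filter only through its LBH589 libraries, and did not pass with its most abundant transcript alone (adjusted p = 0.27). EGR1, an immediate-early ERK target, was at 2.07 ± 0.184 FPKM in LBH589 and 2.13 ± 0.297 FPKM in DMSO (adjusted p = 0.895). PHLDA2 missed the threshold at an adjusted p of 0.196 and passed downward at 0.0458 when DMSO replicate 3 was left out. FOSL1, at most 0.290 FPKM in LBH589 and 0.911 FPKM in DMSO, was below the level tested, and LIF was not among the genes that could be named.

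The kinases and RAS regulators of the cascade moved in both directions. Of 38 genes in the list, 34 were tested, 6 rose, 7 fell and 21 did not pass, and their median log2 fold change was -0.03. These are 17.6% rises and 20.6% falls among the tested genes of the list, against 27.2% and 21.6% of all tested genes. The RAS activator RASGRP3 fell to 3.82 ± 0.505 FPKM in LBH589, against 92.8 ± 11.3 FPKM in DMSO (log2 fold change -4.28, adjusted p = 1.69e-05). The RAS-related MRAS fell to 2.13 ± 1.20 FPKM, against 14.3 ± 2.24 FPKM in DMSO (adjusted p = 0.00192). RPS6KA3, a kinase activated by ERK, fell to 47.0 ± 1.28 FPKM, against 96.7 ± 13.2 FPKM in DMSO (adjusted p = 9.02e-04). PEBP1, an inhibitor of RAF, fell to 126 ± 0.494 FPKM, against 198 ± 29.2 FPKM in DMSO (adjusted p = 0.00709). MAP2K1, which encodes MEK1, rose to 15.3 ± 1.44 FPKM in LBH589, against 6.70 ± 1.24 FPKM in DMSO (adjusted p = 0.00168). The scaffold KSR1 rose to 4.07 ± 1.09 FPKM, against 1.07 ± 0.168 FPKM in DMSO (adjusted p = 0.00278), and RRAS rose to 7.68 ± 1.55 FPKM, against 2.35 ± 1.21 FPKM in DMSO (adjusted p = 0.00753). KSR1 did not pass with its most abundant transcript alone (adjusted p = 0.0532).

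**Figure D4:**
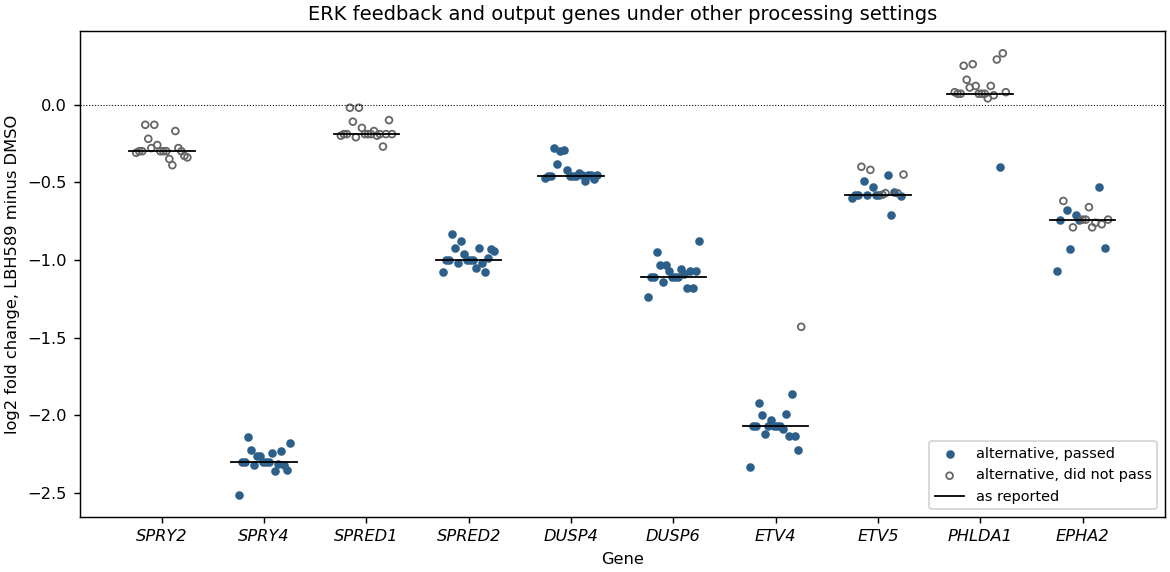
Log2 fold change (LBH589 minus DMSO) of each of the 10 genes under the alternative settings, filled where the gene passed the threshold and open where it did not, with a bar at the value as reported. SPRY4, SPRED2, DUSP4 and DUSP6 stayed below 0 and passed under each of the settings drawn, DUSP4 being nearest to 0 at -0.28 with equal library sums, while EPHA2 and ETV5 passed under some settings only.

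Scaling moves many genes at once, but by unequal amounts on the log2(FPKM + 1) scale. At a sum of 1000000, DUSP4 went from -0.46 to -0.29, ETV4 stayed at -2.07 and EPHA2 went from -0.74 to -0.79. With equal library sums the median over the tested genes was 0.23 in log2, and the log2 fold changes of the 10 genes moved up with it. SPRY4 was then at -2.14, ETV4 at -1.92, DUSP6 at -0.95, SPRED2 at -0.83 and DUSP4 at -0.28. These still passed (adjusted p = 0.042 for DUSP4), so that 5 of the 10 fell. Over all genes, 2002 of 11535 tested fell with that setting, against 2485 of 11520 as reported. SPRY4, the member with the largest change, had 310 of the other 11519 tested genes at a Pearson r of 0.99 or more with it over the 6 libraries. The 5 highest were UBE2C, PHF2, SLC18B1, PFKFB2 and ALDH1B1 (r between 0.9990 and 0.9997), all lower in LBH589. The libraries fall into 2 groups, so r is high for any gene whose groups lie far apart relative to their spread.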

How the data were processed

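Each library has a deposited table of FPKM by transcript, as its column header names the unit, with no counts. The submitters' processing notes list Bowtie 0.12.2 and the build hg19 but not their roles. Which tool estimated FPKM, and with which annotation, is not given in the sources used here. Of 30624 transcripts, 30504 (99.6%) were named through GENCODE release 29, and FPKM was summed per gene. No listed transcript has a group mean under 0.5 FPKM in both groups.

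The test was limma 3.58.1 with trend and robust moderation, run in R 4.3.3 with statmod 1.5.0 and with treatment as the only term. It took log2(FPKM + 1) of the genes whose mean over the 6 libraries reached 0.5 FPKM. P-values were adjusted by Benjamini-Hochberg over all of them, and transcripts likewise. Low values of FPKM times length piled up at a step in 4 libraries. If that step is 1 fragment, depth relative to DMSO replicate 1 was 0.993 in LBH589 replicate 3, 1.11 in DMSO replicate 2 and 0.818 in DMSO replicate 3. The test was first tried on simulated data with known changes in some of the better expressed genes. It recovered 10.6% of 66 changes of 0.5 in log2, 58.5% of 65 changes of 1 and 88.4% of 69 changes of 2. False calls numbered 5. Far fewer genes changed there than were called here, so the shares need not hold for these data. A gene that did not pass is not thereby shown to be unchanged. Other pseudocounts, filters, scalings, moderation, a replicate block, the most abundant transcript and leaving out each library were tried. Named genes were all 10 members, all listed genes of 4 related lists, up to 8 called genes with the smallest adjusted p of 2 longer lists, and the 5 genes most like the member with the largest change, and 1 gene that this rule names is not reported here. The genes and lists were chosen with earlier results of these data known.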

Additional observations from a re-analysis of the deposited data

How the results depend on the processing

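Of the 10 ERK feedback and output genes, between 5 and 7 fell under the alternative settings in which sums over transcripts were used, and 4 fell when each gene was represented by its most abundant transcript. Over all genes, 2485 of 11520 tested fell as reported, between 1664 and 2701 under the summed settings and 1753 of 11457 with the most abundant transcript. Leaving out each library gave between 5 and 7 calls downward among the 10 genes, and between 2056 and 2406 over all tested genes. Without DMSO replicate 2, 1 of the 6 was PHLDA1. Over the 10 genes and all alternatives, 162 of 179 values kept their direction and side of the threshold, 16 kept the direction and lost the call, and 1, PHLDA1 without DMSO replicate 2, turned (log2 fold change -0.40, against 0.33 without DMSO replicate 3). Its main transcript ENST00000602540.5_1 turned likewise (-0.42, against 0.35 without DMSO replicate 3). With a mean of at least 5 FPKM, 1844 of all genes rose, against 3132 as reported, and fewer genes were tested. The count of transcripts that fell was 1 with the replicate block and 1 at adjusted p below 0.01, and between 1 and 6 on leaving out a library. Whether equal replicate numbers mark a pairing is not stated in the labels. The deviations of libraries with the same number from their group means correlated at -0.104, 0.021 and -0.035. Those of libraries with different numbers correlated at -0.05 to 0.085. With 3 libraries in each group, these values do not decide whether a culture or day was shared. With the replicate block 6 of the 10 genes fell, all but EPHA2 (adjusted p = 0.0788) of the 7, and 2617 of all genes rose and 2172 fell.

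Among the related lists, the rises of other Sprouty and SPRED genes numbered 1 with pseudocount 0.1, a mean of at least 5 FPKM, quantile normalization, adjusted p below 0.01 or the most abundant transcript, and 1 or 2 on leaving out a library. At a mean of at least 5 FPKM, other phosphatases gave 2 rises and 1 fall, other output genes 1 rise and class A Eph genes 0 rises. With the most abundant transcript, other ETS and Capicua genes and other output genes gave 1 rise each and the cascade 3. Equal library sums and a sum of 1000000 each gave 1 rise of other ETS and Capicua genes. Class A Eph genes gave 1 fall after quantile normalization, and 0 or 1 on leaving out a library. The cause of these moves was not tested.

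The other values that turned were of genes and transcripts that did not pass either way. With equal library sums, equal library medians, a sum of 1000000 and equal sums without mitochondrial genes, DUSP7 was at 0.12, 0.04, 0.13 and 0.01 and EGR1 at 0.10, 0.03, 0.12 and 0.0. ELK3 was at 0.03 with equal sums, 0.01 at a sum of 1000000 and 0.17 with the most abundant transcript, where ATXN1 was at -0.03. ENST00000266671.9_1 of PHLDA1 was at 0.04 with equal sums and 0.0 at a sum of 1000000. On leaving out a library, ranges were -0.13 to 0.11 for DUSP7, -0.47 to 0.19 for ELK3, -0.18 to 0.98 for ELK4, -0.46 to 0.04 for CIC, -0.10 to 0.03 for EGR1, -0.44 to 0.02 for ENST00000547291.1_1 of DUSP6 and -0.23 to 0.28 for ENST00000266671.9_1. Depth could not be read from the files, so low values carry no counting interval.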

Other observations

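The other class A Eph receptors and ephrins rose where they passed. Of 12 genes, 8 were tested, 4 rose and 0 fell (median log2 fold change 0.24), EPHA4 being also counted among the output genes. Across all tested genes, 27.2% rose and 21.6% fell. EPHA3 was at 9.91, 9.91 and 8.78 FPKM in LBH589, against 0.0137, 0.111 and 0.0591 FPKM in DMSO (log2 fold change 3.31, adjusted p = 2.40e-05), and like EPHA4 it passed the filter on low values only through its LBH589 libraries. EPHA7 rose to 6.15 ± 0.830 FPKM, against 1.004 ± 0.383 FPKM in DMSO (adjusted p = 4.63e-04). The ligand gene EFNA5 rose to 1.97 ± 0.111 FPKM, against 1.30 ± 0.131 FPKM in DMSO (adjusted p = 0.0422), a call that ended without any single library (adjusted p = 0.0545 to 0.121) and after quantile normalization (0.301). Of the list, 1 gene fell after quantile normalization or without DMSO replicate 1. EPHA5, named after its values were seen, at 0.858 ± 0.190 FPKM in LBH589 and 1.71 ± 0.672 FPKM in DMSO, did not pass (adjusted p = 0.0968). Eph receptors are the largest family of receptor tyrosine kinases, and those of class A bind ephrins that are tied to the membrane by a lipid anchor.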
